A study of Macaca mulatta with 28 samples.

Results

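The libraries described here are the 9 with the highest and the 9 with the lowest value of MBP, the gene for myelin basic protein, among 28 RNA sequencing libraries of macaque brain. They were chosen by ranking all 28 libraries on the MBP value in the deposited table of normalized reads per gene, so 18 of 28 libraries entered the comparison and 10 lay between the groups. Each library came from 1 male rhesus macaque that drank ethanol by its own choice for over a year, after an induction period, and the tissue was a frozen block dissected to contain the central nucleus of the amygdala. The animals carry 1 of 4 drinking categories in the labels (low drinker, LD; binge drinker, BD; heavy drinker, HD; very heavy drinker, VHD) and belong to cohort 4, 5, 7a or 7b. All animals drank, and no animal without ethanol was analysed here.

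Myelin is the compacted membrane that oligodendrocytes wrap around axons. Myelin basic protein holds the inner faces of that membrane together, and its messenger RNA is carried out into the oligodendrocyte's processes, where it is translated. The main proteins of the sheath, the enzymes that make its lipids and the transcription factors MYRF and SOX10, which switch on myelin genes, are made by mature oligodendrocytes. The central amygdala itself is a group of inhibitory neurons bordered by fibre tracts and by the globus pallidus, striatum and basal forebrain.

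The high group held 1 LD, 2 BD, 2 HD and 4 VHD animals, and the low group held 5 LD, 2 BD, 2 HD and 0 VHD animals. By cohort, the high group held 2 animals of cohort 4, 4 of cohort 5, 2 of cohort 7a and 1 of cohort 7b, and the low group held 2, 1, 3 and 3 of them. The mean age of a cohort at the end of drinking was 9.98 years in cohort 4, 7.15 in cohort 5, 5.70 in cohort 7a and 7.18 in cohort 7b. The groups were thus made from a measured value and not by the study, and drinking category and cohort are not balanced between them. A p-value below measures how a gene goes with MBP over animals and is no effect of a treatment.

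MBP ran from 5020 to 10047 normalized reads (median 6459, mean 6654 ± 1497, SD, n = 9) in the high group and from 2568 to 3761 (median 3595, mean 3387 ± 417, SD, n = 9) in the low group. The libraries between them held 3762 to 4555 normalized reads. The ratio of the group means was 1.96, and the highest library exceeded the lowest by 3.91-fold. At the upper limit the last library inside had 5020 normalized reads and the next one outside 4555, whereas at the lower limit the values were 3761 inside and 3762 outside. The highest value belonged to VHD replicate 3 and the lowest to LD replicate 8. The median over the 6 VHD libraries was 5740 normalized reads and that over the 10 LD libraries was 3765. These values chose the groups and are given with no test.

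**Figure D1:**
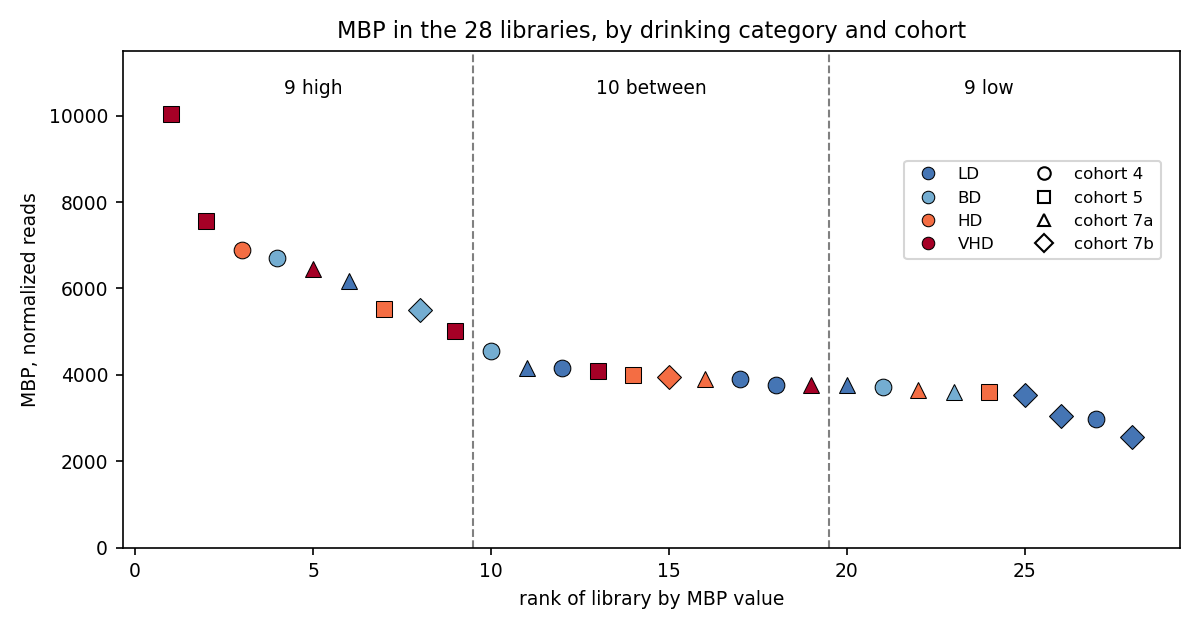
MBP in normalized reads (y axis) against the rank of each of the 28 libraries (x axis), with colour for the drinking category and marker shape for the cohort. The 9 high libraries lie between 5020 and 10047, the 9 low ones between 2568 and 3761, and no very heavy drinker is among the low libraries.

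The MBP value rests almost wholly on 1 exon. Of the 4 exons that the deposited exon table gives to MBP, the one at chromosome 18, 67102936 to 67107400, 4465 bases long, carried 99.2% of the summed exon signal over all 28 libraries. Its value was 6623 ± 1499 (SD, n = 9) in the high group and 3352 ± 416 (SD, n = 9) in the low group. The other 3 exons, of 85 to 165 bases, held 0.116% to 0.476% of the signal each. No source used here names the genome build of these coordinates.

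The libraries held 1910514 to 25928489 reads over genes, with a median of 16444833. BD replicate 1 in the low group (1910514 reads) and HD replicate 1 in the high group (7412823 reads) were the 2 shallowest among the 18. A count of 3 reads, the limit that a count of 0 allows, corresponds to 1.82 to 24.1 normalized reads depending on the library. Depth intervals cover counting error only. In tissue of mixed cells, fewer cells of a type and less RNA per cell cannot be told apart.

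Across the 12883 genes other than MBP that reached 10 normalized reads in at least 5 of the 18 libraries, 147 were higher in the high group (percent called 1.14) and 4 were lower (percent called 0.031) at an adjusted p under 0.05 in limma. In either direction 151 genes passed (percent called 1.17), and 2216 genes had an unadjusted p under 0.05 (percent called 17.2), of which 1312 were higher (percent called 10.2) and 904 lower (percent called 7.02). The called folds were modest: those of the higher genes ran from 1.21 to 4.50 with a median of 1.53, and 6 reached 2-fold. Among the 147 higher genes, 35 were in 1 of 4 oligodendrocyte lists (sheath proteins, transcription factors, membrane and enzyme genes, and myelin lipid synthesis) and 107 were in none of the 33 lists read here. The 9 high libraries all lay above the 9 low ones for 16 genes (percent called 0.124), and in no gene did they all lie below (percent called 0).

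Drinking category and cohort bear on these counts. With cohort as a term in the model 3 genes passed, namely CYP2J2, NDRG1 and TRIM59, and all 3 were among the 147. The differences themselves stayed about as large: with cohort as a term the median log2 difference was 0.65 over the sheath protein list (0.63 without the term), 0.57 over the lineage transcription factors (0.55) and 0.62 over the oligodendrocyte membrane and enzyme list (0.62). With drinking category as a term no gene passed in limma, 978 had an unadjusted p under 0.05 and the smallest adjusted p was 0.231, while the 3 medians were 0.51, 0.41 and 0.47. Without the 4 VHD libraries, which all sit in the high group, 8 genes passed, all of them among the 147, and the median fold over the 147 was 1.42 against 1.53 with them. In all 147 the mean of the remaining high libraries was above that of the low ones. These libraries also called the genes, so that sign was nearly fixed in advance. Within cohorts the sign was the same: the high libraries averaged above the low ones for 147 of 147 genes in cohorts 4, 5 and 7a and for 145 in cohort 7b, from the same libraries that called the genes. The number called also hung on single libraries, and was 66 without VHD replicate 4, 73 without HD replicate 2, 76 without VHD replicate 5, 80 without LD replicate 2, 81 without HD replicate 5, 85 without VHD replicate 3 and 100 without LD replicate 10. Every cohort held both high and low libraries. The VHD animals among the 18 were all in the high group, so a difference carried by those 4 libraries cannot be told apart from the VHD category.

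**Figure D2:**
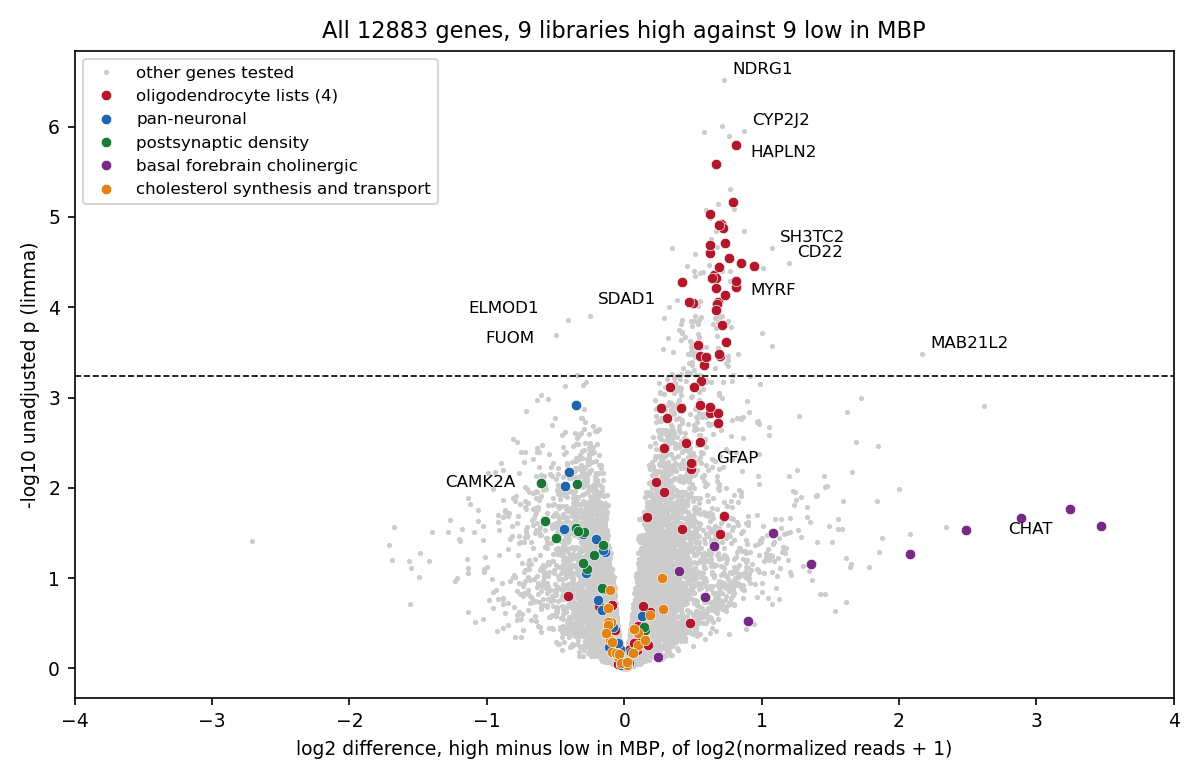
The log2 difference between groups (x axis, high minus low, on log2 of normalized reads plus 1) against the negative log10 of the unadjusted p from limma (y axis) for all 12883 genes, coloured by gene list. Points above the dashed line have an adjusted p under 0.05: 147 lie to the right, among them most sheath genes, and 4 to the left.

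Most sheath protein genes were higher where MBP was high. Of 17 tested genes for sheath proteins other than MBP, 10 were higher in the high group, against 1.14% of all genes tested, and none was lower. The median fold was 1.54 (median over all genes 0.013 on the log2 scale). MOG, a glycoprotein of the outermost sheath surface, had 1597 to 3062 normalized reads (median 2142) in the high group and 1069 to 2285 (median 1266) in the low group. It was higher by 1.59-fold (95% interval 1.32 to 1.92, adjusted p = 0.0132), and the groups overlapped through the shallow library BD replicate 1, whose 2285 normalized reads were the highest in the low group. MAG, which sits on the innermost layer facing the axon, had 1929 to 4325 normalized reads (median 2542) in the high group and 1196 to 2010.0 (median 1742) in the low group and was higher by 1.60-fold (95% interval 1.31 to 1.96, adjusted p = 0.0193). CNP, the enzyme that keeps cytoplasm-filled channels open in the sheath, had 5769 to 10398 normalized reads (median 6969.7) in the high group and 3751 to 6044 (median 4835) in the low group and was higher by 1.56-fold (95% interval 1.30 to 1.87, adjusted p = 0.0132). In these 3 genes all 9 high libraries exceeded the mean of the low group.

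CLDN11, the claudin of the tight junctions between myelin layers, was higher by 1.70-fold (95% interval 1.38 to 2.09, adjusted p = 0.0122). MOBP, a small basic protein of compact myelin, had 2215 to 5181 normalized reads (median 3735) in the high group and 1764 to 3221 (median 2231) in the low group and was higher by 1.64-fold (adjusted p = 0.0236). ERMN, a cytoskeletal protein of late oligodendrocytes, was higher by 1.63-fold (adjusted p = 0.00878), OPALIN by 1.62-fold (adjusted p = 0.0366), and the raft proteins MAL and PLLP by 1.54-fold (adjusted p = 0.0115) and 1.49-fold (adjusted p = 0.0421). In each of these at least 8 of 9 high libraries lay above the low mean. The sheath genes that did not pass included the oligodendrocyte connexin GJB1 (1.46-fold, adjusted p = 0.119), CD9 (1.40-fold, adjusted p = 0.158), PMP22 (1.24-fold, adjusted p = 0.0871), PMP2 (0.752-fold, adjusted p = 0.444) and TSPAN2 (0.970-fold, adjusted p = 0.951), and GJC3 did not pass either. PMP2, a fatty acid binding protein best known from peripheral myelin, had 411 to 1422 normalized reads (median 585) in the high group and 580.1 to 2976 (median 802) in the low group. Its top value came from LD replicate 8, the library lowest in MBP, and the direction of PMP2 differed between cohorts, with 2 of 4 higher and 2 lower.

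Of 10 tested transcription factors of the oligodendrocyte lineage 4 were higher, against 1.14% of all genes tested. MYRF, the membrane-bound factor that drives the myelin genes, had 1144 to 2555 normalized reads (median 1376) in the high group and 545 to 1026 (median 905) in the low group. The groups did not overlap and MYRF was higher by 1.76-fold (95% interval 1.39 to 2.22, adjusted p = 0.0147). ST18 was higher by 1.73-fold (adjusted p = 0.00835), ZNF536 by 1.60-fold (adjusted p = 0.0194) and SOX10, the factor needed through the whole lineage, by 1.47-fold (adjusted p = 0.0366). SOX10 had 583 to 1120.0 normalized reads (median 805) in the high group and 354 to 645 (median 546) in the low group, and HD replicate 5 stood below the other low libraries. The 6 other tested factors did not pass: NKX2-2 (1.54-fold, adjusted p = 0.0827), NKX6-2 (1.47-fold, adjusted p = 0.0760), ZNF488 (1.41-fold, adjusted p = 0.151), OLIG2 (1.23-fold, adjusted p = 0.197), OLIG1 (1.14-fold, adjusted p = 0.529) and SOX2 (1.11-fold, adjusted p = 0.617). OLIG1 and OLIG2 mark precursors as well as mature cells, and SOX2 marks progenitors and astrocytes. Over the 10 tested factors the median fold was 1.47, and all 10 estimates were above 1, as were 52.6% of those over all genes tested.

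**Figure D3:**
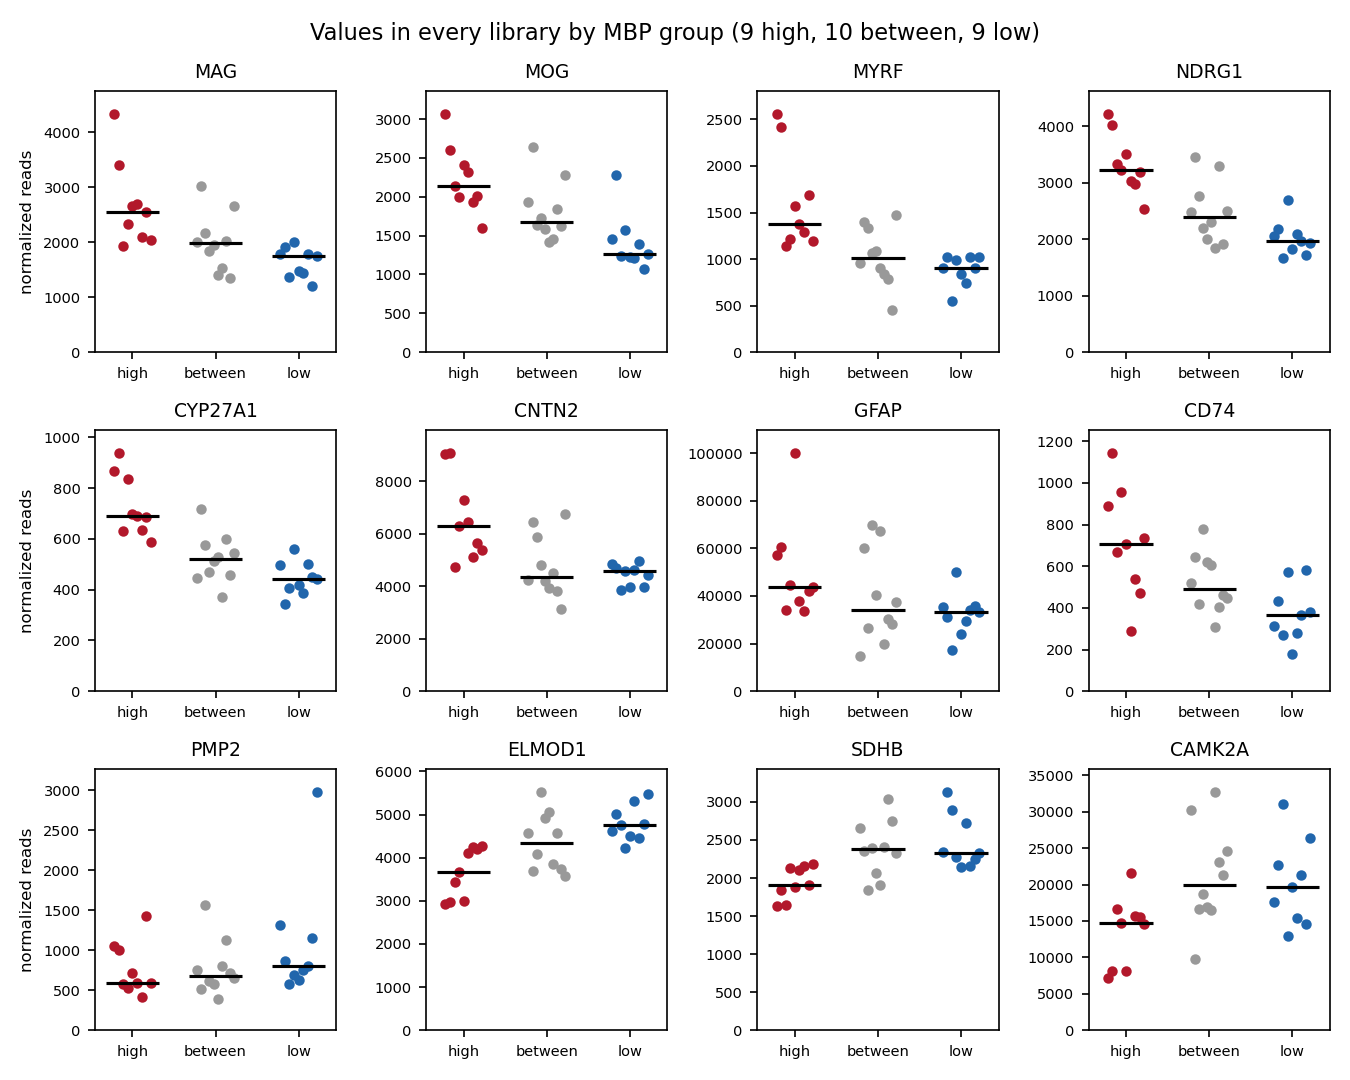
Normalized reads of 12 genes (y axes, each starting at 0) in every library of the high, between and low groups, with a bar at the group median. MYRF and CYP27A1 show no overlap between high and low libraries, MOG overlaps through 1 low library, and PMP2 shows no separation.

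Membrane proteins, enzymes and carriers of mature oligodendrocytes held the largest number of called genes, in a list longer than that of the sheath proteins (10 of 17 called). Of 31 tested, 16 were higher, against 1.14% of all genes tested. All 31 estimates lay above 1, as did 52.6% of those over all genes tested, and the median fold was 1.54. TMEM144 was higher by 1.93-fold (95% interval 1.49 to 2.50, adjusted p = 0.0123) and the inositol transporter SLC5A11 by 1.81-fold (adjusted p = 0.0123). ASPA, which splits N-acetylaspartate and so frees acetate for myelin lipids, had 365 to 978 normalized reads (median 626) in the high group and 243 to 408 (median 301) in the low group and was higher by 1.76-fold (adjusted p = 0.0135). HAPLN2, a link protein of the matrix around nodes of Ranvier, was higher by 1.76-fold (95% interval 1.47 to 2.09, adjusted p = 0.00341). ERBB3, a neuregulin receptor, was higher by 1.61-fold (adjusted p = 0.0123) with no overlap between groups, and the lysophospholipid receptors LPAR1 and S1PR5 by 1.66-fold (adjusted p = 0.0106) and 1.61-fold (adjusted p = 0.0358). TTYH2 was higher by 1.65-fold (adjusted p = 0.00878) and FOLH1 by 1.54-fold (adjusted p = 0.00839). TF, transferrin, which carries iron and is made in the brain largely by oligodendrocytes, reached 1.47-fold and missed the threshold (adjusted p = 0.0533).

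Among all genes with a mean of at least 50 normalized reads, the largest called folds included genes outside the sheath. CD22, a sialic acid binding lectin, had 61.6 to 154 normalized reads (median 82.0) in the high group and 16.03 to 59.5 (median 41.9) in the low group, with no overlap, and was higher by 2.296-fold (95% interval 1.66 to 3.18, adjusted p = 0.0123). SH3TC2, a gene known from peripheral myelin through an inherited neuropathy, had 413 to 1287 normalized reads (median 515) in the high group and 248 to 394 (median 317) in the low group, again with no overlap, and was higher by 2.11-fold (95% interval 1.59 to 2.79, adjusted p = 0.0106). ADAMTS4, a matrix protease, was higher by 2.02-fold (adjusted p = 0.0123), the adhesion gene CTNNA3 by 1.83-fold (adjusted p = 0.00878), the epoxygenase CYP2J2 by 1.83-fold (adjusted p = 0.00325) and the integrin ITGA2 by 1.78-fold (adjusted p = 0.0358). In CD22, SH3TC2 and CYP2J2 the highest values over all 28 libraries came from HD replicate 1 and LD replicate 1. LD replicate 1 lay between the groups in MBP and held 137, 1405 and 747 normalized reads of these genes. HD replicate 1 and LD replicate 1 held 7412823 and 6474295 reads over genes, and the reason for their high values was not tested. ABCA8, a lipid transporter, had 2258 to 4099.9 normalized reads (median 3145) in the high group and 1411 to 2835 (median 1643) in the low group and was higher by 1.74-fold (adjusted p = 0.00839). The largest fold of any called gene belonged to the low-level gene MAB21L2, which was singled out after its values were seen. It had 9.57 to 64.5 normalized reads (median 24.4) in the high group and 0 to 17.3 (median 6.22) in the low group and a fitted fold of 4.50 that depends on the pseudocount.

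Of 20 tested genes of myelin lipid synthesis 5 were higher, against 1.14% of all genes tested, with a median fold of 1.15 over the list. All 5 were enzymes of the sphingolipids that myelin is rich in. UGT8, which makes galactosylceramide, had 1219.7 to 2186 normalized reads (median 1765) in the high group and 743 to 1412 (median 1008) in the low group and was higher by 1.61-fold (95% interval 1.35 to 1.91, adjusted p = 0.00878). FA2H, which hydroxylates its fatty acid, was higher by 1.67-fold (adjusted p = 0.0306), and GAL3ST1, which adds the sulfate, by 1.51-fold (adjusted p = 0.0369). ELOVL1 and CERS2, which make and attach very long acyl chains, were higher by 1.59-fold (adjusted p = 0.00479) and 1.34-fold (adjusted p = 0.0135). By comparison, 0 of 23 tested genes of cholesterol synthesis and transport passed in limma at an adjusted or an unadjusted p under 0.05, 10 estimates were above 1 and 13 below, and the median fold was 0.973. That split moved with the setting: 12 of 23 were positive after scaling to all gene reads, 1 of 23 was positive with drinking category as a term (median log2 difference -0.25) and 1 of 23 without the VHD libraries (-0.19), and leaving out 1 library gave 7 (without LD replicate 8) to 14 (without HD replicate 3). With log2 MBP as a number in all 28 libraries, 18 of 23 slopes were positive (median 0.092). In the 10 libraries between the groups 17 of 23 slopes were positive (median 0.17). In the comparison of the high with the low group, the smallest adjusted p in that list was 0.371 for NSDHL (1.21-fold). SREBF2, the master regulator of sterol genes, stood at 0.929-fold (adjusted p = 0.422).

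NPC1, CYP27A1 and LIPA, also among the 147, were singled out after their values were seen, and with LCAT, named for its fold, they form no list fixed for this comparison. NPC1, which exports cholesterol from lysosomes, had 1272 to 2057 normalized reads (median 1585) in the high group and 871 to 1206 (median 1035) in the low group, with no overlap, and was higher by 1.49-fold (95% interval 1.32 to 1.69, adjusted p = 0.00325). CYP27A1, the sterol 27-hydroxylase, had 587 to 938 normalized reads (median 691) in the high group and 345 to 559 (median 442) in the low group, with no overlap, and was higher by 1.64-fold (95% interval 1.41 to 1.90, adjusted p = 0.00325). LIPA, the lysosomal lipase, was higher by 1.38-fold (adjusted p = 0.0192), and LCAT, which esterifies cholesterol on lipoproteins, by 1.88-fold (adjusted p = 0.0492). The direction of NPC1 and CYP27A1 was the same in each of the 4 cohorts.

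**Figure D4:**
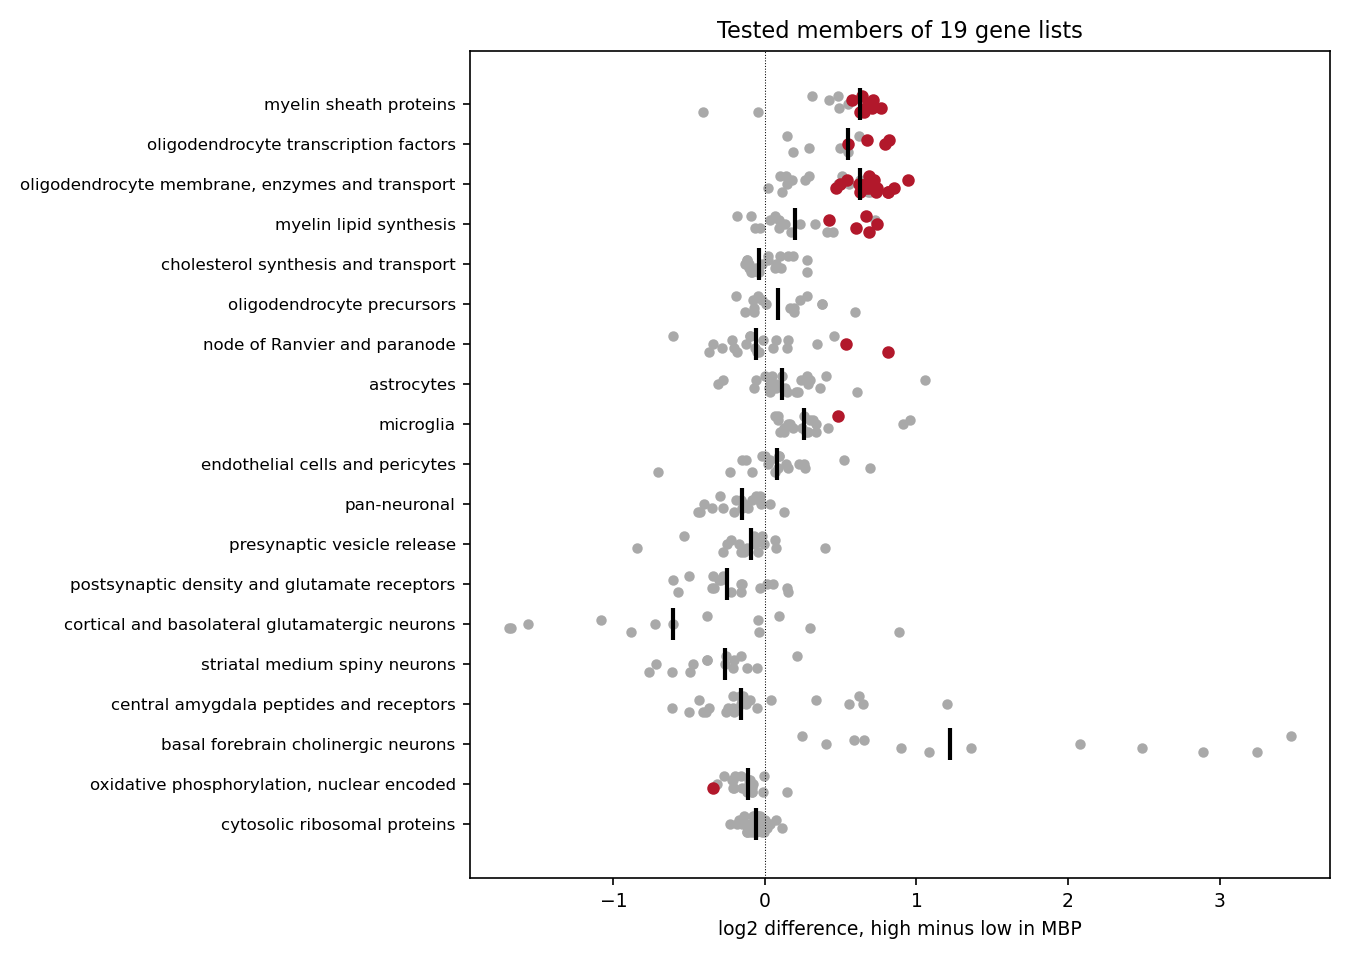
Log2 difference of every tested member of 19 gene lists (x axis), high minus low in MBP, with called genes in red, others in grey and a black bar at each list's median. The oligodendrocyte lists sit right of 0, the neuronal lists mostly left of 0 with no red point, and the cholinergic list spreads widest.

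At the node of Ranvier and the paranode, where glia and axon meet, 2 of 22 tested genes were higher, against 1.14% of all genes. These were HAPLN2, above, and CNTN2, an adhesion molecule made by both oligodendrocytes and neurons, which had 4730.0 to 9063 normalized reads (median 6310.4) in the high group and 3854 to 4973 (median 4564) in the low group and was higher by 1.45-fold (95% interval 1.23 to 1.71, adjusted p = 0.0236). The paranodal and nodal gene NFASC reached 1.27-fold (adjusted p = 0.158), and the axonal channel subunit KCNAB2 stood at 0.821-fold (adjusted p = 0.120). Over the list 8 estimates were above 1 and 14 below, with a median fold of 0.960. Of 13 neurofilament and axonal transport genes none passed in limma and 3 had an unadjusted p under 0.05, as did 17.2% of all genes tested. NEFL, the light neurofilament, stood at 0.814-fold (adjusted p = 0.256), and the motor KIF5B at 1.14-fold (adjusted p = 0.254).

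The genes whose values ranked most like MBP over all 28 libraries, given as a description, were led by HSPA2 (Spearman rho 0.816), NDRG1 (0.808), FOXN2 (0.806), HAPLN2 (0.804) and ZFYVE16 (0.800). They were followed by GAB1, ELOVL1, TTYH2, RECQL and LPAR1, at 0.791 to 0.797. The points share their library, its depth and its upper-quartile scaling with MBP. The known sheath genes MOG (0.788) and MAG (0.744) came below these 10. NDRG1, a hydrolase-fold protein found in oligodendrocytes and Schwann cells, had 2538 to 4210.1 normalized reads (median 3228) in the high group and 1675 to 2697 (median 1972) in the low group. It was higher by 1.65-fold (95% interval 1.44 to 1.90, adjusted p = 0.00325), the smallest p of all genes tested. HSPA2, a heat shock protein of the Hsp70 family, was higher by 1.53-fold (adjusted p = 0.00839) and the small heat shock protein CRYAB by 1.74-fold (adjusted p = 0.0135). These were the 2 that passed among 15 tested chaperones, against 1.14% called higher of all genes tested. GAB1, an adaptor of growth factor receptors, was higher by 1.55-fold (adjusted p = 0.0102), FOXN2 by 1.34-fold (adjusted p = 0.0272), ZFYVE16 by 1.40-fold (adjusted p = 0.0403) and RECQL by 1.32-fold (adjusted p = 0.0256).

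**Figure D5:**
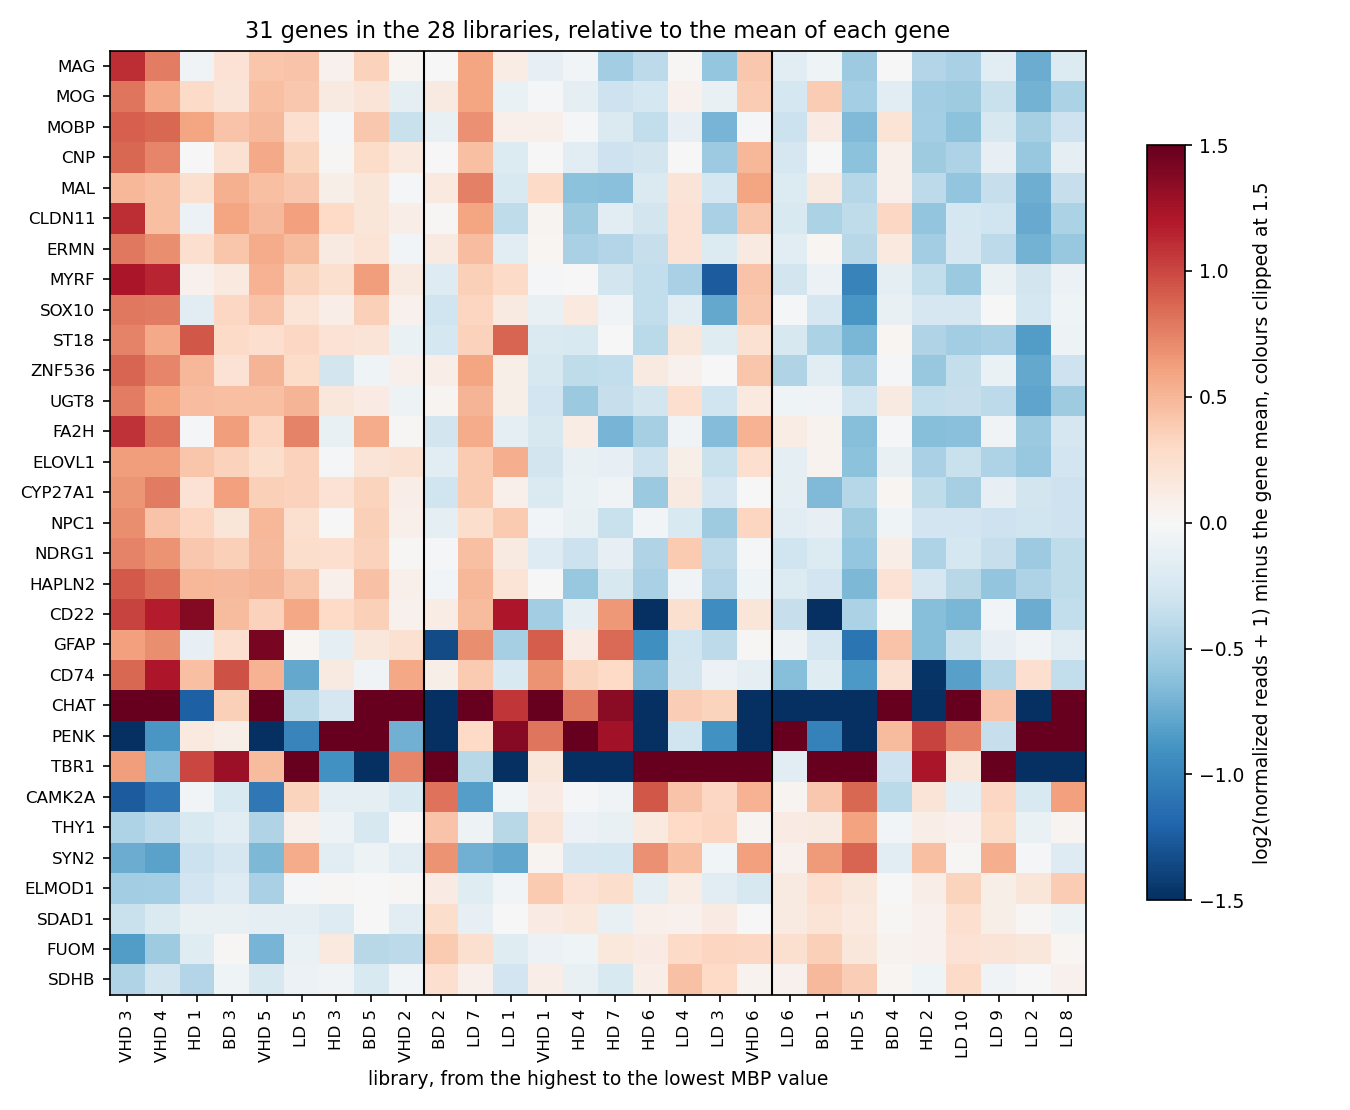
Log2 of normalized reads plus 1 minus the gene's mean over the 28 libraries (colour) for 31 genes (rows) in libraries ordered from the highest to the lowest MBP (columns), with lines between the high, between and low groups. Sheath, factor and lipid genes are mostly above their mean in the high group, and LD replicate 7 among the between libraries is also high in them. PENK and TBR1 vary without that order. CHAT varies widely within each group, with its highest values in VHD replicates 3, 4 and 5.

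The 4 genes that were lower in the high group were FUOM, ELMOD1, SDHB and SDAD1. FUOM, a fucose mutarotase, had 424 to 836 normalized reads (median 578) in the high group and 773 to 970.0 (median 853) in the low group and stood at 0.708-fold (95% interval 0.604 to 0.830, adjusted p = 0.0279). ELMOD1, a GTPase-activating protein for ARF-family GTPases, had 2932 to 4267 normalized reads (median 3678) in the high group and 4232 to 5486 (median 4746) in the low group and stood at 0.754-fold (95% interval 0.666 to 0.855, adjusted p = 0.0233). SDHB, the iron-sulfur subunit of respiratory complex II, had 1637 to 2178 normalized reads (median 1904) in the high group and 2144 to 3127 (median 2333) in the low group and stood at 0.789-fold (95% interval 0.699 to 0.890, adjusted p = 0.0492). SDAD1, a nucleolar protein, had 1796 to 2262 normalized reads (median 2036) in the high group and 2144 to 2681 (median 2402) in the low group and stood at 0.840-fold (95% interval 0.778 to 0.907, adjusted p = 0.0233). In each of these 4 all 9 high libraries lay below the low mean, and none separated the groups fully. Next by p and short of the threshold were DGKE (0.823-fold, adjusted p = 0.0533), ITFG1 (0.812-fold, adjusted p = 0.0567), the serotonin receptor HTR2C (0.741-fold, adjusted p = 0.0574) and WNT10B (0.656-fold, adjusted p = 0.0646).

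In the pan-neuronal, presynaptic and postsynaptic lists no gene passed in limma, and most estimates were below 1. Of 19 pan-neuronal genes, 17 estimates were below 1, 7 had an unadjusted p under 0.05 and none passed in limma, with a median fold of 0.900. Over all genes tested 7.02% were lower at an unadjusted p under 0.05. THY1, a surface glycoprotein of neurons, had 7835 to 11425 normalized reads (median 9216) in the high group and 10123 to 16505 (median 11584) in the low group and a fold of 0.785 (adjusted p = 0.0760). The calcium sensor VSNL1 stood at 0.758-fold (adjusted p = 0.161) and RBFOX3, which encodes the NeuN antigen, at 0.743-fold (adjusted p = 0.184). For the postsynaptic density and glutamate receptors 14 of 18 estimates were below 1, 8 at an unadjusted p under 0.05, with a median of 0.842. On the log2 scale that median was -0.25 with all 18 libraries and -0.087 without the 4 VHD libraries. For presynaptic release the median was 0.937 over 18 genes, and SYN2, a synaptic vesicle phosphoprotein, stood at 0.690-fold (adjusted p = 0.156). Nuclear genes of oxidative phosphorylation were lower in 21 of 22 estimates, 10 at an unadjusted p under 0.05, but with SDHB alone past the threshold. This list held 1 lower call without BD replicate 4, HD replicate 3, LD replicate 5, LD replicate 9 or VHD replicate 2. Leaving out any other single library gave 0. In the main comparison 0.031% of all genes tested were called lower. NDUFV1, of complex I, stood at 0.828-fold (adjusted p = 0.173), and the list's median fold was 0.925. The deposited values were scaled to a common upper quartile. When they were scaled to all gene reads instead and ranked again, 124 genes passed, 3 of them lower.

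Few genes of precursors and other glia passed. Of 16 oligodendrocyte precursor genes none passed in limma and 1 had an unadjusted p under 0.05, with a median fold of 1.06. MEGF11 stood at 1.21-fold (adjusted p = 0.254) and SOX6 at 1.17-fold (adjusted p = 0.326). Of 25 astrocyte genes none passed, 7 were higher and 1 lower at an unadjusted p under 0.05, and the median fold was 1.08. Over all genes tested 10.2% were higher and 7.02% lower at an unadjusted p under 0.05. Without the VHD libraries 12 of 25 astrocyte estimates were positive and the median log2 difference was -0.0067, against 0.11 with them. GFAP, the astrocyte intermediate filament, had 33555 to 99937 normalized reads (median 43768) in the high group and 17389.6 to 50061 (median 33328) in the low group and a fold of 1.52 (adjusted p = 0.158). CD44 reached 2.08-fold (adjusted p = 0.0986) and GLUL, glutamine synthetase, 1.22-fold (adjusted p = 0.177). The summed level of the astrocyte list was 305248 to 403512 (median 339400.0) in the high group and 285246 to 358994 (median 331853) in the low group, so the groups overlapped widely.

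All 21 tested microglia genes had estimates above 1, as did 52.6% of all genes tested, and the median fold was 1.20. Of the 21 genes 1 passed, against 1.14% called higher of all genes tested. That gene was C1QC, a chain of complement C1q, which had 207 to 348 normalized reads (median 267) in the high group and 144 to 241 (median 199) in the low group and was higher by 1.40-fold (95% interval 1.18 to 1.65, adjusted p = 0.0492). The number of microglia calls hung on single libraries. It was 2 without LD replicate 5, and 1 without BD replicate 1, 4 or 5, HD replicate 3 or LD replicate 8. Leaving out any other single library gave 0. CD74, the invariant chain of MHC class II, had 287 to 1142 normalized reads (median 707) in the high group and 177 to 582 (median 365) in the low group and a fold of 1.88 (adjusted p = 0.0812). The summed microglia level was 5953 to 9629 (median 8352) in the high group and 5349 to 8122 (median 7017) in the low group. The part of these markers in the other results was not tested. Of 20 endothelial and pericyte genes none passed, with 1 at an unadjusted p under 0.05, and none of the 12 blood cell genes reached the level for a test.

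Markers of neighbouring regions varied widely between libraries. The 12 basal forebrain cholinergic genes all had estimates above 1 and a median fold of 2.33, but none passed in limma, and 6 had an unadjusted p under 0.05. Over all genes tested 52.6% of estimates were above 1 and 10.2% were higher at an unadjusted p under 0.05. On the log2 scale the median was 1.22 with all 18 libraries, 0.31 with drinking category as a term, and 0.12, with 8 of 12 estimates above 0, without the 4 VHD libraries. CHAT, the enzyme that makes acetylcholine, had 24.4 to 1687 normalized reads (median 285) in the high group and 0 to 606 (median 12.4) in the low group. Its fitted fold was 9.50 (95% interval 1.56 to 57.7, adjusted p = 0.221), and 3 of 9 high libraries, VHD replicates 3, 4 and 5, lay above every low one. Low values near 0 make the fold of CHAT depend on the pseudocount. The summed level of the cholinergic list was 1563 to 29114 (median 5449) in the high group and 659.9 to 10222 (median 2582) in the low group.

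The cortical and basolateral glutamatergic list had a median fold of 0.656 over 13 genes, with 3 at an unadjusted p under 0.05 and none past the threshold. Of all genes tested 17.2% had an unadjusted p under 0.05. CAMK2A, a kinase of excitatory synapses, had 7224 to 21553 normalized reads (median 14693) in the high group and 12983 to 31127 (median 19639) in the low group and a fold of 0.656 (adjusted p = 0.180). FEZF2 stood at 0.314-fold (adjusted p = 0.247), whereas TBR1, another cortical factor, stood at 1.23-fold (adjusted p = 0.881). On the log2 scale the median of the list was -0.61 with all 18 libraries and -0.22 without the VHD libraries. Of 15 striatal genes 14 estimates were below 1, with PDE1B at 0.710-fold (adjusted p = 0.228) and DRD1, a dopamine receptor, at 0.652-fold (adjusted p = 0.256). The median log2 difference of the striatal list was -0.26, and it was -0.066 with 8 of 15 estimates below 0 without LD replicate 8, -0.090 without the VHD libraries and 0.033 with drinking category as a term. In the list for pallidum, thalamus and habenula 1 of 13 genes passed, the secreted phosphoprotein SPP1, at 1.53-fold (95% interval 1.24 to 1.88, adjusted p = 0.0380). That list held 1 higher call without BD replicate 1, 4 or 5, HD replicate 3, LD replicate 5 or VHD replicate 2. Leaving out any other single library gave 0. In the main comparison 1.14% of all genes tested were called higher. SPP1 is also made by oligodendrocytes and microglia, and its source was not tested. AVP, vasopressin, stood at 21751 normalized reads in 1 high library, VHD replicate 5, while the other 17 libraries compared held no more than 32.8.

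No peptide gene of the amygdala passed. CRH, the corticotropin-releasing hormone, had 16.9 to 78.9 normalized reads (median 44.5) in the high group and 16.03 to 81.0 (median 58.5) in the low group and a fold of 0.843 (adjusted p = 0.685). The opioid precursors PDYN and PENK stood at 0.919-fold (adjusted p = 0.831) and 0.587-fold (adjusted p = 0.524), SST at 0.893-fold (adjusted p = 0.769) and NPY at 0.933-fold (adjusted p = 0.849). The intervals were wide: that of PENK ran from 0.237 to 1.45 and that of CRH from 0.547 to 1.30. Among 24 amygdala peptide and receptor genes none passed, with 5 at an unadjusted p under 0.05, a level that 17.2% of all genes tested reached. OPRM1, the mu opioid receptor, stood at 1.47-fold (adjusted p = 0.228). The glucocorticoid target FKBP5 stood at 1.21-fold (adjusted p = 0.419), the receptor NR3C1 at 1.12-fold (adjusted p = 0.197) and the early gene EGR3 at 0.617-fold (adjusted p = 0.212). Of 34 cytosolic ribosomal protein genes none passed, 1 had an unadjusted p under 0.05, and the median fold was 0.958. On the log2 scale that median was -0.062, and 0.011 after scaling to all gene reads. Differences rose with the summed exon length of a gene: the median log2 difference was -0.041 in the 2577 shortest genes (up to 1597 bases) and 0.052 in the 2577 longest, with 12 and 46 higher calls. Of the ribosomal genes 29 of 34 were among these shortest genes, of the oxidative phosphorylation genes 13 of 22, and of the sheath genes 4 of 17, and no gene of these 3 lists was among the longest. The part of length in these results was not tested. In 24 of the 33 lists limma called no gene, and edgeR on recovered reads called none in any of these 24 either. DESeq2 called 2 higher astrocyte genes, 1 lower gene each in the pan-neuronal, GABAergic and amygdala lists, 1 higher gene of iron and copper handling, and 1 higher and 1 lower regulator of myelination there.

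The 10 libraries between the groups did not enter the choice of genes and give a view on other animals. Over them, 122 of the 147 higher genes (82.99%) had a positive Spearman correlation with MBP, against 50.0% of all genes tested, and the median rho over the 147 was 0.188. The 147 signs come from the same 10 libraries and are not separate checks. LD replicate 7 was the highest of the 10 in MOG (2637 normalized reads), MAG (3025) and MOBP (4470). How far this library set the signs was not tested. Of the 4 lower genes 2 had a negative one. MBP spanned only 3762 to 4555 normalized reads there. In a model of these 10 alone no gene passed in limma and 88 had an unadjusted p under 0.05. MOBP had a rho of 0.60 and HAPLN2 of 0.588. ELMOD1 and SDAD1, lower in the main comparison, had 0.358 and 0.0303.

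Relative exon use is a readout that the ranking did not use. Over 9626 genes with at least 3 tested exons, 12 passed the F test of limma at an adjusted p under 0.05 (percent called 0.125). The myelin genes were not among them: NFASC, MAG, CNP, BIN1 and ANK3 all had an adjusted p of 1.0. The smallest p belonged to USP7, through a 145-base exon at chromosome 16, 8947461 to 8947605, with a value of 4.78 ± 5.91 (SD, n = 9) in the high and 21.9 ± 17.5 (SD, n = 9) in the low group. The single libraries ranged from 1 to 20 and from 1 to 49 there. In GAS7, a 314-base exon at chromosome 17, 9972006 to 9972319, held 12 to 54 in the high and 5 to 12 in the low group, while the gene as a whole stood at 0.903-fold. In PAIP1, a 126-base exon at chromosome 5, 44188342 to 44188467, held 96 to 125 in the high and 107 to 321 in the low group. Others among the 10 genes with the smallest p were PTPRA, PPP3CB, FRA10AC1, SLC25A12, EIF3M and EBAG9. When each exon was given its own spread between libraries, no gene passed in limma and 392 had an unadjusted p under 0.05 (percent called 4.07).

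Whether genes go with MBP in another way in heavy (HD and VHD) than in low (LD and BD) drinkers was asked in all 28 libraries. Of 13021 genes none had a slope on log2 MBP that differed in limma at an adjusted p under 0.05 (percent called 0), 1396 had an unadjusted p under 0.05 (percent called 10.7), and edgeR on recovered reads also called none. The smallest adjusted p was 0.150, in OAF, whose slope was -1.40 in the heavy and 0.650 in the low drinkers. CCDC109B had slopes of 0.970 and -0.192, PSD of -1.05 and -0.114, HPCAL4 of -0.791 and -0.039, and CA11 of -1.26 and 0.046. These are the 5 genes with the smallest p and none of them passed.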

How the data were processed

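RNA of 28 blocks was sequenced after ribosomal RNA depletion with a stranded kit, per the labels' protocols. CASAVA, FastQC, STAR 2.3.0e and edgeR are named in the submitters' processing notes. The deposited gene table holds upper-quartile normalized reads, a signal scaled by the authors so that the upper quartile is 1002 to 1005 in each library. The values are whole multiples of what 1 read is worth in 100% of cases within 0.02 reads, so whole reads were recovered. The deposited exon table holds normalized values that the authors rounded to whole numbers, treated as a score. Of the per-sample columns 2 match no sample and were not used. No source used here names the genome build or the annotation.

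Libraries were ranked by MBP. The 9 highest and 9 lowest were compared with limma 3.58.1 (R 4.3.3, trend) on log2(value + 1), for genes with 10 or more normalized reads in at least 5 of 18 libraries, MBP left out, two-sided, with Benjamini-Hochberg adjustment and a threshold of 0.05. Fold changes are on that log2 scale and understate the change of low genes. Exon use was tested with the F test of limma's diffSplice. Slopes on log2 MBP were compared between heavy and low drinkers in all 28 libraries. edgeR 4.0.16 and DESeq2 1.42.0 on recovered reads, other filters, pseudocounts, rankings, group sizes and terms were alternatives. Scripts were tested on simulated data. Each library is 1 animal, and replicate numbers follow the order of deposition and pair nothing.

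The groups and gene lists were chosen with earlier results of these data known. Named genes have a mean of at least 50 normalized reads and are the 15 higher and 15 lower ones by fold (filled by p), the sheath proteins and lineage factors, up to 4 of each other list by p, the 10 most like MBP by rank, the leading exon use and slope results, and CRH, PDYN, PENK, SST, NPY, GFAP, FKBP5, CHAT and TBR1; not all are described. Some members counted in the lists, and the groups under 1 other ranking, are not reported here. Chosen after their values were seen were GAL3ST1, NPC1, CYP27A1, LIPA, ERBB3, S1PR5, MAB21L2 and TRIM59.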

Additional observations from a re-analysis of the deposited data

Results flagged for a closer look

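In 13 of the 206 group-wise checks made on the named genes, 1 library stood apart from the 8 others of its group by more than Dixon's 95% critical value, computed on the log2 scale. Chance flags about 1 in 20 such checks. In the low group BD replicate 1, the library with the fewest reads, stood apart in CD22 (16.03 normalized reads), MOG (2285), NDUFV1 (1603) and CRH (16.03). BD replicate 4 stood above the other low libraries in ABCA8 (2835), CLDN11 (1688) and GLUL (37885). HD replicate 5 stood below them in SOX10 (354) and VSNL1 (5997). LD replicate 8, lowest of all in MBP, stood above them in PMP2 (2976) and PDE1B (5695). In the high group VHD replicate 3, highest in MBP, stood above the rest in RECQL (412), and VHD replicate 5 in the hypothalamic peptide gene AVP (21751). Without BD replicate 1, 138 genes passed, and without BD replicate 4, 203 did.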

How the results depend on the processing

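No paired analysis was possible because the replicate numbers only follow the order of deposition and the groups were formed by MBP. The 151 calls between the groups became 150 at a pseudocount of 0.5 or 8, 138 with no filter, 160 with a filter of 50 in at least 9 libraries, 156 in edgeR, 124 after scaling to all gene reads, 129 with 7 against 7 and 145 without the shallow libraries. They became 367 in DESeq2 (319 higher, 86.9%), 277 with a robust fit and array weights (248 higher), 67 with 14 against 14, 1223 with log2 MBP as a number in all 28 libraries (646 higher, 52.8%, against 97.4% in the main comparison) and 486 with groups ranked by MOG, MAG, MOBP and CNP (358 higher, 73.7%). Of the 151 genes, 135 were also called under the ranking by these 4 genes. That ranking left the 4 genes out of its test and shared most of its libraries with the MBP groups. The shared calls are thus no separate check. The count was 3 with cohort as a term, 0 with drinking category as a term, 0 with cohort and drinking category as terms, 8 without the VHD libraries and 0 in the 10 libraries between the groups, where fewer libraries were compared. Leaving out 1 library in turn gave 66 to 203. The VHD, combined-term and exon-spread alternatives were chosen after seeing the data.

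The 12 calls of exon use became 156 with a Simes test over exons, 5 with a filter of 50, 20 without the shallow libraries, 0 with each exon's own spread, 11 at a pseudocount of 8, 16 with cohort as a term and 13 to 30 leaving out 1 library in turn. The slope comparison called 0 genes under every alternative run.

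Of the 103 genes examined in this way, 54 were called, and the direction of 47 of these held under every alternative run. In the 10 libraries between the groups the slopes on log2 MBP of the others were -0.022 for CRYAB, -0.10 for CERS2, -1.14 for GAL3ST1, -0.52 for C1QC, -0.053 for LIPA, 0.43 for SDAD1 and 0.83 for ELMOD1. There the sign also turned in genes that were not called: PMP2 (0.62), TSPAN2 (1.13), OLIG2 (-0.058), OLIG1 (-0.45), SOX2 (-0.35), KIF5B (-0.19), MEGF11 (-1.41), SOX6 (-0.29), GFAP (-2.42), GLUL (-0.43), THY1 (0.15), RBFOX3 (0.23), DRD1 (0.97), HTR2C (0.040), OPRM1 (-2.94), NDUFV1 (0.29), DGKE (0.31), PENK (0.50) and TBR1 (-2.81). With both terms the log2 difference was -0.043 in NSDHL, 0.29 in CRH, 0.29 in PDYN, 0.36 in PENK, -0.046 in FKBP5 and -0.16 in TBR1. With drinking category alone it was -0.076 in NSDHL, 0.19 in CRH, 0.30 in PDYN, 0.40 in PENK and -0.25 in TBR1, and with cohort alone 0.061 in PDYN. Without the VHD libraries it was 0.13 in CRH, 0.15 in PDYN and 0.15 in PENK. TSPAN2 turned to 0.099 with 7 against 7, 0.25 in all 28, 0.17 under the 4-gene ranking, 0.068 after scaling to all reads and 0.044 without shallow libraries. The robust fit gave NPY 0.030. With 14 against 14 SST was 0.13 and TBR1 -0.76, and TBR1 was -0.31 in DESeq2 and -0.28 in edgeR. Leaving out 1 library gave -0.22 to 0.088 in TSPAN2, -0.25 to 0.027 in PDYN, -0.25 to 0.0045 in NPY and -0.26 to 0.73 in TBR1. The cause was not tested for any of these.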
